A study of Homo sapiens and Mus musculus with 10 samples.

Results

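Keratins are the intermediate filament proteins of epithelial cells, and their genes lie in 2 clusters of the human genome. The members described here are the protein-coding genes of GENCODE release 44 whose symbol is KRT followed by digits and at most 1 letter, so that the keratin-associated proteins (KRTAP) are left out. This rule found 55 of 19970 protein-coding genes on the autosomes and X. The chromosome 17 cluster holds 28 of them, the type I (acidic) genes. The chromosome 12 cluster holds 27, the type II (basic) genes together with KRT18, a type I gene that lies beside its partner KRT8.

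The study profiled accessible chromatin by short-read bulk ATAC-seq, in which the Tn5 transposase inserts adapters into open DNA. The human lines were GM12878 (B lymphoblastoid cells transformed by Epstein-Barr virus), HEK293T (embryonic kidney cells that carry adenoviral sequence and SV40 large T antigen), HFF1 (foreskin fibroblasts) and K562 (chronic myelogenous leukaemia cells of erythroid character). Mouse embryonic stem cells (mESC), grown without feeders and with leukaemia inhibitory factor, were the fifth sample type. Each had 2 libraries, labelled replicates 1 and 2, and the labels name no treatment, genotype or clone. None of the human lines is a keratinocyte or epidermal line. Nothing in the labels says that replicates came from separate cultures, so agreement between replicates covers only the spread between these libraries.

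A keratin filament is built from heterodimers of 1 type I and 1 type II chain that pair along a central alpha-helical rod. Simple epithelia make KRT8 and KRT18, with KRT7, KRT19 or KRT20 added by tissue, while stratified epithelia use KRT5 with KRT14 in the basal layer and switch to other pairs as the cells differentiate. The trichocyte keratins of the hair shaft and the keratins of its inner root sheath fill most of the remaining places in the clusters.

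A gene was called in a line when both of its libraries had a deposited peak over the 1 kb on either side of any annotated start site. By this rule 4 of 55 keratin genes were called in GM12878 (7.27%), against 71.9% of all protein-coding genes. HEK293T had 2 called keratin genes (3.64%) against a background of 67.8%. HFF1 had 13 (23.6%) against 76.2%, and K562 had 5 (9.09%) against 70.4%. In each line the keratin share was thus well under the share of all genes. No library had a promoter peak at 37 of the 55 genes, a state shared by 14.7% of all genes, and 15 were called in at least 1 line, against 82.9%. No p is given for these counts, because the list was chosen with earlier results of these data known.

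**Figure D1:**
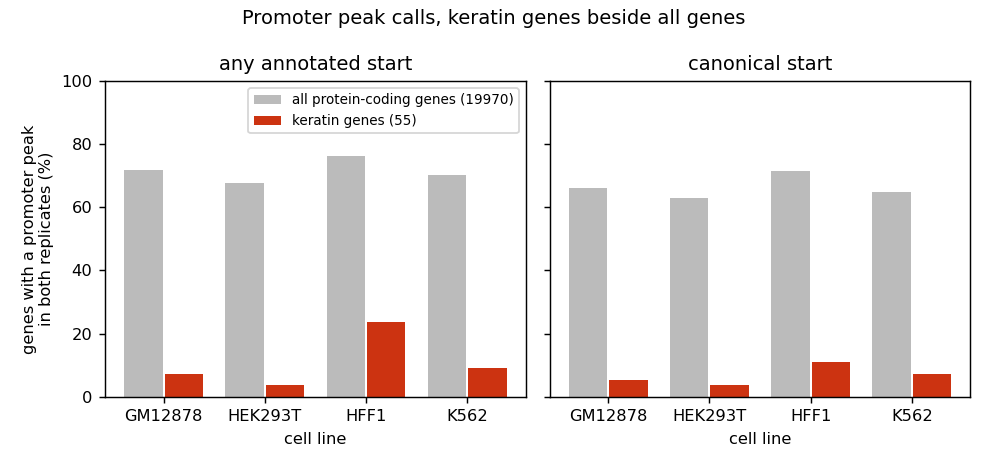
Bars give the percent of genes with a promoter peak in both replicates, for all 19970 protein-coding genes (grey) and the 55 keratin genes (red), in each human line, with any annotated start (left) or only the canonical start (right). The keratin bars stay under 24% where the grey bars lie above 60%, and the HFF1 keratin bar drops from 23.6% to 10.9% when only canonical starts count.

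In the lists as deposited, HFF1 had the most called genes in both clusters. On chromosome 17 the called genes numbered 1 in GM12878, 0 in HEK293T, 7 in HFF1 and 2 in K562. On chromosome 12 they numbered 3, 2, 6 and 3. The chromosome 17 order turned with lists of equal length: among the 50000 best peaks per library HFF1 had 0 called genes there and K562 had 1. Restricting each gene to its canonical start left 3, 2, 6 and 4 called genes in GM12878, HEK293T, HFF1 and K562 (background 66.3%, 62.9%, 71.5% and 64.7%), so 7 of the 13 HFF1 calls rested on annotated starts inside a gene or on other secondary starts.

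The peak lists differed in length between lines, and their order matched that of the called genes only in part. HFF1 had the longest lists and HEK293T the shortest, but GM12878 had longer lists than K562 and fewer called keratin genes (4 against 5). The HFF1 libraries had 127359 and 120344 peaks, GM12878 101704 and 103715, K562 78601 and 71241, and HEK293T 52438 and 52137. HEK293T also had the lowest background level, 0.465 and 0.466 reads per window against 1.71 to 2.43 in the others. With every list shortened to its 50000 best peaks, HFF1 had 5 called keratin genes, K562 4, GM12878 1 and HEK293T 1, and the background was 65.0%, 66.3%, 63.4% and 67.0%. Marker promoters were read to check the labels. The B-cell genes MS4A1, CD79A and CD79B were called in GM12878 alone. All 5 fibroblast markers were called in HFF1 (all genes 76.2%), all 4 kidney markers in HEK293T (67.8%), and 3 of 4 erythroid markers in K562 (70.4%). KLF1 had no promoter peak in any library. The fibroblast markers were also called in GM12878 (3), HEK293T (2) and K562 (3), and the kidney markers in GM12878 (1) and HFF1 (2). Called in their own line and in no library of another were 3 B-cell, 1 fibroblast, 2 kidney and 2 erythroid markers. The background for this was 1.4%, 2.05%, 0.336% and 1.12%. Most of the fibroblast markers thus did not single out their line. Several markers were open beyond their own line: PAX5, EPOR and COL1A1 had a promoter peak in all 8 libraries.

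All 5 keratins of simple epithelia had a promoter peak in at least 1 line, and they made up 3 of the 4 called genes in GM12878, both in HEK293T, 5 of 13 in HFF1 and 3 of 5 in K562. KRT8 and KRT18 were the only keratin genes called in all 4 lines, a state shared by 59.7% of all genes. This number fell to 1 with canonical starts or with −log10 q of at least 5, and to 0 among the 50000 best peaks. KRT8 (chr12:52897187-52949954, minus strand) has 18 annotated starts, of which some lie at KRT18, so that a peak there counts for both genes.

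Every library had a peak in KRT8 intron 1 (chr12:52903441-52904298). There the highest fold over local background, as the authors' lists give it, was 5.604 and 6.41 in GM12878, 9.81 and 10.96 in HEK293T, 5.92 and 7.26 in HFF1, and 5.02 and 5.81 in K562. The summits of these highest peaks lay 1096 and 1025 bp downstream of the canonical start in GM12878 and 1432 to 1503 bp downstream in the other 6 libraries. Not all of these peaks overlap between lines. The positions did not divide the lines: GM12878 replicate 2 had a weaker peak at 1430 bp. HEK293T replicate 1 had one at 1132 bp and HFF1 replicate 2 at 1082 bp, and the K562 peaks covered both positions. A separate peak just upstream of the canonical start, with its summit 52 to 115 bp before it, was present in both HEK293T libraries (folds 6.25 and 8.30) and both K562 libraries (5.34 and 5.44). GM12878 and HFF1 had no peak there in either library. Folds describe each peak within its own list and are not compared between lines.

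KRT18 (chr12:52948871-52952906, plus strand), the dimer partner of KRT8, had a peak at its start in 7 of the 8 libraries. Folds there were 3.85 and 4.52 in GM12878, 5.71 in HEK293T replicate 2, 3.38 and 3.12 in HFF1, and 7.43 and 6.68 in K562. HEK293T replicate 1 lacked it and was called through a peak in intron 1 with a fold of 4.90. A further intron 1 peak, 804 to 819 bp downstream of the start, was present in both libraries of HFF1 (6.62 and 7.05) and of K562 (6.27 and 5.80). In HFF1 this intron peak had the higher fold of the 2 in both libraries.

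KRT7, a type II partner in ductal and glandular epithelia, was called in GM12878 and HFF1 away from its canonical start. The peak (chr12:52243967-52244746 in GM12878 replicate 1) lay in intron 6, 11019 to 11068 bp downstream of the canonical start, at an internal start of a transcript with no defined coding sequence. Folds were 12.4 and 12.7 in GM12878 and 10.1 and 10.7 in HFF1, and the peak was absent from all HEK293T and K562 libraries. It ranked above 91.5% to 96.8% of peaks in the lists that hold it.

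KRT19, which lacks most of the tail domain of other keratins, was called in HFF1 and K562. The HFF1 summits lay 29 and 31 bp inside exon 1 (folds 3.53 and 3.18), near the bottom of their lists. In K562 the main summits lay 113 and 122 bp upstream (4.84 and 5.68), with a weaker second peak downstream in each library. KRT20, typical of intestinal and urothelial cells, was called only in HFF1, from a peak centred 1066 and 1063 bp upstream of its start (6.99 and 7.51).

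**Figure D2:**
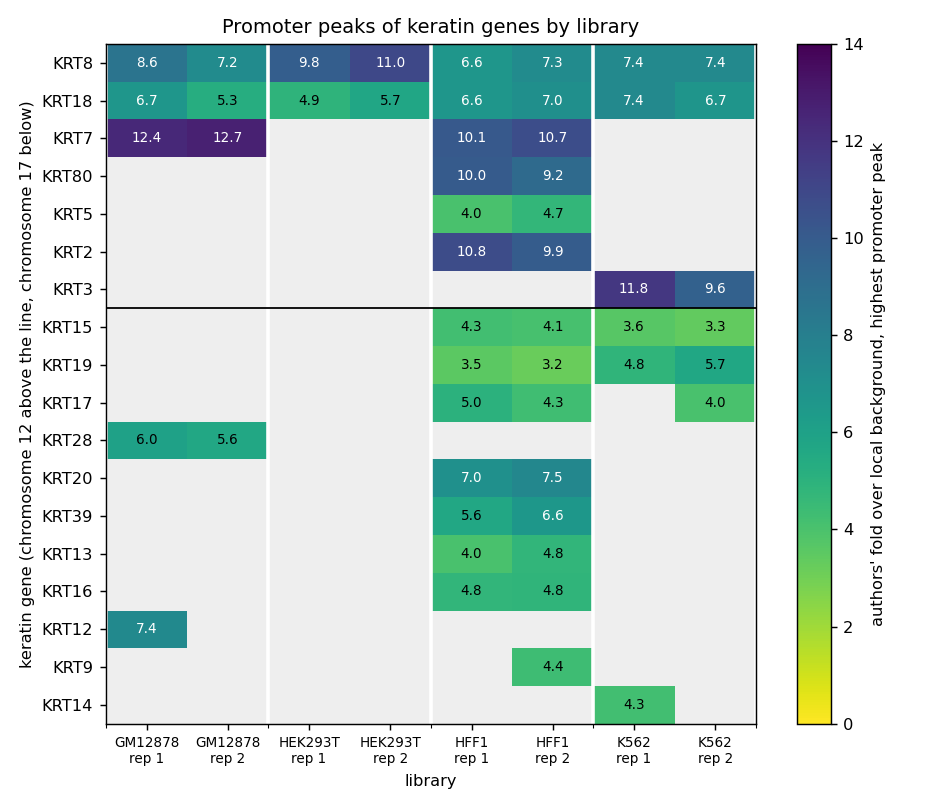
Each cell gives the authors' fold over local background of the highest promoter peak (any annotated start) of 1 keratin gene in 1 library; grey cells have no promoter peak. The 18 genes with a peak in at least 1 library are shown, those of chromosome 12 above the line. KRT8 and KRT18 fill all 8 columns, and 7 genes fill only both HFF1 columns.

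Of the 3 basal keratins, KRT5 was called only in HFF1, through a weak peak in intron 7 (folds 4.03 and 4.73), 4304 and 4312 bp downstream of its canonical start. KRT14, its partner, had a promoter peak only in K562 replicate 1, over exon 6. KRT15 was called in HFF1, 269 and 265 bp upstream of the canonical start (4.25 and 4.06). K562 was also called for KRT15, but at other annotated starts 2433 to 2998 bp upstream, where folds were between 3.34 and 3.64. The KRT15 peaks of the 2 lines therefore did not overlap.

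Of the 13 keratins of differentiated, mucosal and corneal epithelia, KRT2 and KRT13 were called in HFF1 and KRT3 in K562. The KRT2 peak lay in intron 1 (10.8 and 9.94), and KRT2 is made by suprabasal epidermal cells. KRT13, a mucosal keratin, had an intron 1 peak (4.00 and 4.79). KRT3, of corneal epithelium, was called only in K562, where the peak centres lay 1226 and 1225 bp upstream of its start (11.8 and 9.65) and a peak edge reached into the window. KRT12, its corneal partner, had a peak only in GM12878 replicate 1, and KRT9, the keratin of palm and sole, only in HFF1 replicate 2. The other 8 had none, among them KRT1 and KRT10, the main suprabasal pair of epidermis.

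Of the 6 stress-inducible and companion layer keratins, KRT16 and KRT17 were called, both in HFF1. KRT16 is induced in wounded epidermis. Its summits lay 203 and 385 bp upstream of the canonical start (4.78 and 4.83). KRT17 was reached in HFF1 through intron 1 (4.69 and 4.28) and intron 4 (4.98 and 3.73), away from its canonical start. K562 replicate 2 alone had a peak over that start, with its summit 281 bp upstream (4.01). KRT6A, KRT6B, KRT6C and KRT75 had no promoter peak in any library.

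Among 8 inner root sheath keratins only KRT28 was called, in GM12878, 616 and 636 bp upstream of its start (5.98 and 5.58). Among 17 hair shaft keratins only KRT39 was called, in HFF1, through intron 5 (5.58 and 6.57). The summits lay 5420 and 5175 bp downstream of its canonical start. Another annotated gene overlaps KRT39 at this site, so the peaks cannot be assigned to KRT39. The group of 3 without a listed role contributed KRT80, a keratin found in many epithelia. KRT80 was called in HFF1 at 328 and 325 bp upstream of its canonical start (10.0 and 9.17) and again in intron 1 (6.40 and 6.21). LINC00592 overlaps KRT80 here, and the peaks cannot be assigned to 1 of the 2 genes.

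Calls in 1 line and in no library of any other were counted next. HFF1 had 7 such keratin genes (KRT80, KRT5, KRT2, KRT20, KRT39, KRT13 and KRT16) against a background of 2.05% of all genes. GM12878 had 1 (KRT28, background 1.4%), K562 had 1 (KRT3, background 1.12%), and HEK293T had 0 (background 0.336%). At canonical starts the HFF1 number was 4 against 2.75%.

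Sequence around the canonical starts was read from hg38 for all 55 genes and for 2169 other protein-coding genes of chromosomes 12 and 17, over 300 bases from upstream into the transcript. CpG observed over expected had a median of 0.188 in keratins and 0.770 in the others. Only 4 keratins (7.27%) reached 0.6, against 66.7% of the others: KRT18 (0.881), KRT7 (0.732), KRT72 (0.716) and KRT222 (0.657). Of these, KRT18 was called at its canonical start, while KRT7, KRT72 and KRT222 were not in any line.

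The letters TATAAA, on either strand, were found in 27 keratin windows (49.1%) and in 11.2% of the other windows. The GC box letters GGGCGG were found in 23.6% against 61.8%, and CCAAT in 45.5% against 35.9%. The AP-1 letters TGACTCA were found in 1.82% against 3.37%. Median GC content was 48.3% in keratins and 63.3% in the other genes. A match is a description of the letters and not of binding. The 9 keratins called at their canonical start in at least 1 line (background 78.6%) had a median CpG ratio of 0.251, and the 46 not called 0.171.

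**Figure D3:**
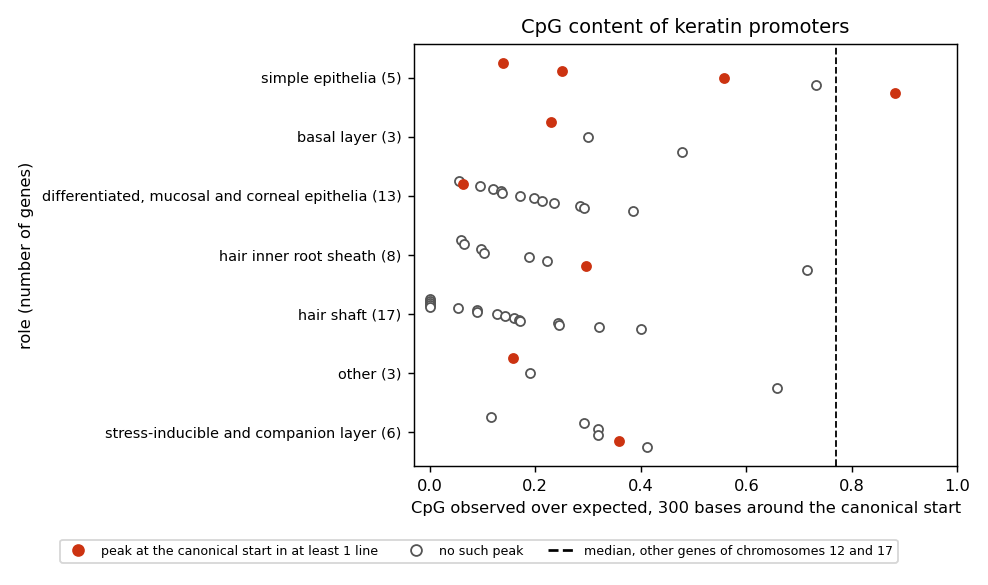
Points are the 55 keratin genes by role, placed by CpG observed over expected in 300 bases around the canonical start; filled points had a peak at that start in both replicates of at least 1 line. The dashed line is the median of the other genes of chromosomes 12 and 17 (0.770), and 1 keratin, KRT18 (0.881), lies to the right of it.

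RefSeq's promoter table (GRCh38.p14) held 34 of the 55 symbols. The entries of KRT1, KRT13, KRT14, KRT15, KRT16, KRT17, KRT18, KRT19, KRT222, KRT23, KRT6A, KRT6B, KRT6C, KRT7, KRT72, KRT77, KRT78, KRT80, KRT81, KRT83 and KRT86 were missing. From this table the 150 bases upstream of the start are shown for 3 genes of the CpG-poor kind: KRT10, with no promoter peak in any library, KRT28, called only in GM12878, and KRT3, called only in K562. They lie at chr17:40822615-40822764, chr17:40799960-40800109 and chr12:52796118-52796267, all on the minus strand and written 5′ to 3′. Capitals mark TATAAA and CCAAT on either strand.
KRT10: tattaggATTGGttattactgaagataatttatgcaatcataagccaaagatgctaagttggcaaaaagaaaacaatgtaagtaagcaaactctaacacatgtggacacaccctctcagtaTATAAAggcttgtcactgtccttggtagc
KRT28: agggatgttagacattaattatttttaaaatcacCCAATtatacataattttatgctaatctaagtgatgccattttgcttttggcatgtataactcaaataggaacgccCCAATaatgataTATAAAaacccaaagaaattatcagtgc
KRT3: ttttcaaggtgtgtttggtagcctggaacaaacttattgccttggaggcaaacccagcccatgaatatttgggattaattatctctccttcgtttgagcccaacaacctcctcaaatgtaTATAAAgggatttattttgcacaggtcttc

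KRT10 had a peak away from its start. It had no promoter peak in any of the 8 libraries, yet a peak near its 3′ end, over exon 7 (chr17:40818787-40819161), was present in all of them. The merged region (chr17:40818714-40819437) had folds of 15.0 and 15.7 in GM12878, 6.14 and 8.19 in HEK293T, 17.3 and 15.95 in HFF1, and 8.64 and 8.53 in K562. Its summit lay 3547 bp downstream of the start. It was 1 of 5 regions of the chromosome 17 cluster called in all 4 lines, and the only 1 of those within a keratin gene. These regions were annotated with protein-coding genes only. Whether a non-coding gene starts at this site was not tested, so the peak cannot be assigned to KRT10. KRT34, a hair keratin without a promoter peak, had an intron 3 peak in HFF1 alone (11.7 and 11.01).

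The whole stretch from the first to the last keratin gene was then compared between lines, counting every peak in it. The chromosome 17 span (chr17:40654665-41624842) also holds genes of the KRTAP family. It contained 42 and 39 peaks in GM12878, 7 and 9 in HEK293T, 72 and 69 in HFF1, and 21 and 20 in K562. The HFF1 and HEK293T libraries were the highest and the lowest, and no 2 lines overlapped.

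As a share of each library's peaks, HFF1 had 0.0569% ± 0.000567 (SD, n = 2), GM12878 0.0394% ± 0.00261, K562 0.0274% ± 0.000959 and HEK293T 0.0153% ± 0.00277. The order of the middle lines depended on list length: among the 50000 best peaks GM12878 had 0.024% and 0.03%, which overlapped K562 at 0.028% and 0.028%, while HFF1 (0.058% and 0.054%) stayed highest and HEK293T (0.014% and 0.018%) lowest. Eta squared, the part of the variance that lay between lines, was 0.992. Its exact one-sided permutation p, over all ways to pair the 8 libraries, was 0.00952, the smallest possible here. Adjusted by Benjamini-Hochberg over both clusters it was 0.019. No span outside the keratin clusters was tested, so whether such a difference between lines is particular to keratins cannot be told. The ends of the span come from the gene list, which was chosen with earlier results of these data known. Peak names begin with AH in replicate 1 and BH in replicate 2 of HEK293T, HFF1 and K562, and with another prefix in both GM12878 libraries. Among the first 3 lines alone, eta squared was 0.995 (exact permutation p = 0.0667, the minimum for 3 lines).

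The chromosome 12 span (chr12:52168996-52952906) contained 33 and 40 peaks in GM12878, 17 and 17 in HEK293T, 53 and 52 in HFF1, and 36 and 28 in K562. As shares of the library these were 0.0355% ± 0.00433 in GM12878, 0.0325% ± 0.000132 in HEK293T, 0.0424% ± 0.00113 in HFF1 and 0.0426% ± 0.00459 in K562 (SD, n = 2). Here the lines did not separate beyond the spread of the replicates: eta squared was 0.788, with an exact one-sided permutation p of 0.105 (adjusted 0.105). With lists of 50000 peaks eta squared was 0.921 and the exact permutation p 0.0286, so the outcome for chromosome 12 changed with the length of the lists.

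Long stretches of the chromosome 17 cluster held no peak. The longest measured 510 and 420 kb in HEK293T and 420 and 420 kb in K562, and in all 4 libraries it ran from before KRT23 across KRT39, KRT40 and KRTAP genes to a point short of the hair keratin KRT33A. In GM12878 the longest was 112 kb in both libraries, and in HFF1 73.4 and 137 kb. GM12878 and HFF1 both had peaks inside the stretch that was empty in HEK293T and K562. Of 94 KRTAP genes, 3, 2, 7 and 1 were called in GM12878, HEK293T, HFF1 and K562 (background 71.9%, 67.8%, 76.2% and 70.4%). The 6 called in HFF1 and in no library of another line (background 2.05%) were KRTAP1-5, KRTAP2-3, KRTAP2-4, KRTAP4-8, KRTAP4-6 and KRTAP4-2, all on chromosome 17.

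**Figure D4:**
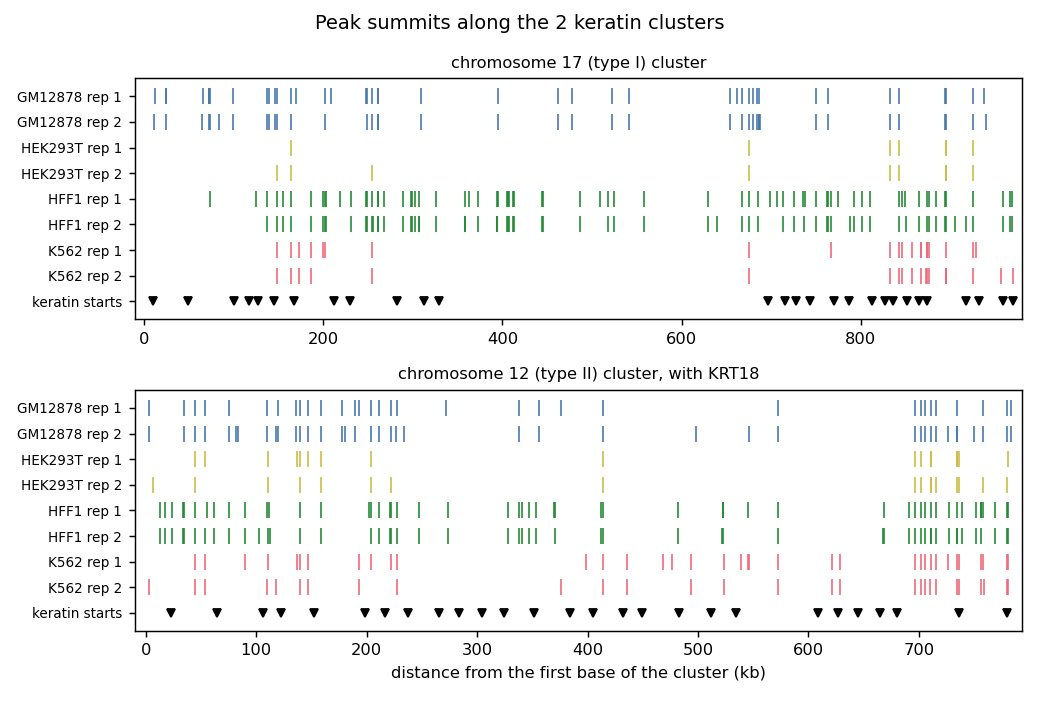
Ticks are peak summits of each library along the chromosome 17 (top) and chromosome 12 (bottom) clusters, by distance in kb from the first base of the cluster, and triangles are canonical keratin starts. The HFF1 tracks (72 and 69 peaks) and, more thinly, the GM12878 tracks (42 and 39) run through the middle of the chromosome 17 cluster, where HEK293T and K562 have a gap of 420 kb or more.

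Peaks of all 8 libraries were merged into regions. The chromosome 17 span had 110 regions, of which 38 (34.5%) were called in both HFF1 libraries and nowhere else, against 21.2% of 243200 regions genome-wide. The chromosome 12 span had 89 regions, of which 25 (28.1%) were of this kind. GM12878 alone had 16 on chromosome 17 and 6 on chromosome 12 (14.7% genome-wide), K562 alone 4 and 5 (6.31%), and HEK293T alone 0 and 0 (1.78%).

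Among peaks of both spans, the AP-1 letters TGACTCA lay within 50 bp of the summit in 21.6% and 22.3% of peaks of the 2 HFF1 libraries, against 13.7% and 13.6% of all their peaks on chromosomes 12 and 17. GM12878 had 13.3% and 10.1% against 6.82% and 6.94%, and K562 8.77% and 6.25% against 7.61% and 7.03%. In HEK293T 0 of 24 and 0 of 26 span peaks held the letters, and so few peaks do not separate this from the 3.18% and 3.00% of all its peaks. AP-1 is a dimer of JUN and FOS family factors, and its letters are shown for 4 of the peaks named above that hold them. A KRT15 peak of K562 replicate 1 and the KRT18 intron 1 peaks of HFF1 and K562 also hold them but are not shown. The 4 shown lie upstream of KRT20 (chr17:40886320-40886380, minus strand), upstream of KRT80 and in its intron 1 (chr12:52192347-52192407 and chr12:52186252-52186312, minus strand), and in KRT7 intron 6 (chr12:52244227-52244287, plus strand), all in hg38. Each stretch has 61 bases, is written 5′ to 3′ on the gene's strand, and has the letters in capitals on either strand.
KRT20 upstream: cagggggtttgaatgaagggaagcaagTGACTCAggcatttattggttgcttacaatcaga
KRT80 upstream: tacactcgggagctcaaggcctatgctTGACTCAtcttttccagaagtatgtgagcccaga
KRT80 intron 1: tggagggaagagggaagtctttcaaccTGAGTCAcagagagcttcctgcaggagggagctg
KRT7 intron 6: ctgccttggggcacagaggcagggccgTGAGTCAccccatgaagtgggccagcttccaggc

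Some keratin peaks lay over exons after exon 1, and a part of these exons, though not most of them, had a stretch of sequence in common. The keratin rod ends in a conserved motif that is among the most similar parts of all intermediate filament proteins. In the coding strand it often holds the 12 letters ATCGCCACCTAC or ATCGCTACCTAC, which were found in 23 keratin exons (exon 6 or 7 in most genes). This stretch was chosen after the peaks over these exons had been seen, so the human counts are a description.

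Of the 23 exons, 8 (34.8%) had a peak over the stretch in both replicates of at least 1 line and 11 in at least 1 library. Of the other 374 keratin exons after exon 1, 13 (3.48%) had a peak in both replicates of a line. The background over 21790 exons after exon 1 of other genes of chromosomes 12 and 17 was 6.04%. Exons with the stretch had a median length of 221 bp and the others 157 bp. The 8 exons belong to KRT80, KRT83, KRT85, KRT84, KRT82, KRT77, KRT18 and KRT36, and all but KRT18 had no promoter peak in the line in question.

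Folds were modest. KRT83 had 10.6 and 9.17 in GM12878, 5.11 and 8.27 in K562, and 8.61 in HEK293T replicate 1 only. KRT84 had 9.49 and 11.7 in GM12878 and 6.33 and 5.54 in HFF1. KRT36 was called in 3 lines: 7.93 and 7.46 in GM12878, 6.83 and 6.82 in HEK293T, and 7.95 and 7.80 in K562.

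KRT82 had 4.75 and 6.42 in GM12878 and 4.63 and 4.98 in K562, and KRT77 had 7.36 and 8.84 in K562 only. KRT80 (6.01 and 4.95) and KRT18 (6.65 and 5.26) were called over the stretch in GM12878, and KRT85 (5.54 and 6.62) in K562. GM12878 thus had 6 of these calls and K562 5, whereas HFF1, which had the most promoter calls, had both replicates over the stretch only at KRT84, and HEK293T only at KRT36. KRT81, KRT86 and KRT14 had such a peak in single libraries only. Over all 34 peaks the fold ran from 3.71 to 11.7 with a median of 6.63, and 32 of the 34 summits lay within 26 bp of the stretch.

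The 61 bases around the stretch are shown for 3 of the called exons, 1 type II and 2 type I, 5′ to 3′ on the coding strand in hg38, with the stretch in capitals. They lie at chr12:52692425-52692485 (KRT77, minus strand), chr12:52952275-52952335 (KRT18, plus strand) and chr17:41486954-41487014 (KRT36, minus strand).
KRT77 exon 7: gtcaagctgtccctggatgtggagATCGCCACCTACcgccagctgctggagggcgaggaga
KRT18 exon 6: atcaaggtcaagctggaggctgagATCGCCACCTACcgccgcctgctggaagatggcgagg
KRT36 exon 6: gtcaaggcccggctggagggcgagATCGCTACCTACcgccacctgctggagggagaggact
Keratin exons resemble each other over these bases. The sources used here give no rule for reads that match several copies, so the share of reads that belongs to each copy cannot be told apart.

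The mESC libraries had played no part in the choice of the stretch. In mouse (GRCm38, GENCODE M21), 20 Krt exons hold it, and 6 of them (30%) had a peak over it in both mESC libraries, against 13 of 360 other exons after exon 1 (3.61%). The genes were Krt16 (folds 6.91 and 7.00), Krt20 (12.03 and 12.2), Krt5 (5.78 and 4.68), Krt72 (6.14 and 5.19), Krt75 (6.66 and 8.04) and Krt82 (6.77 and 6.44). In 10 of the 12 peaks the summit lay within 25 bp of the stretch. The exceptions were both Krt20 peaks, at 130 and 117 bp. The human genes KRT5, KRT16 and KRT20 do not hold the 12 letters, so they could not be called over the stretch. Among the human counterparts that hold it, KRT82 was called, and KRT72 and KRT75 had no peak over it in any library.

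**Figure D5:**
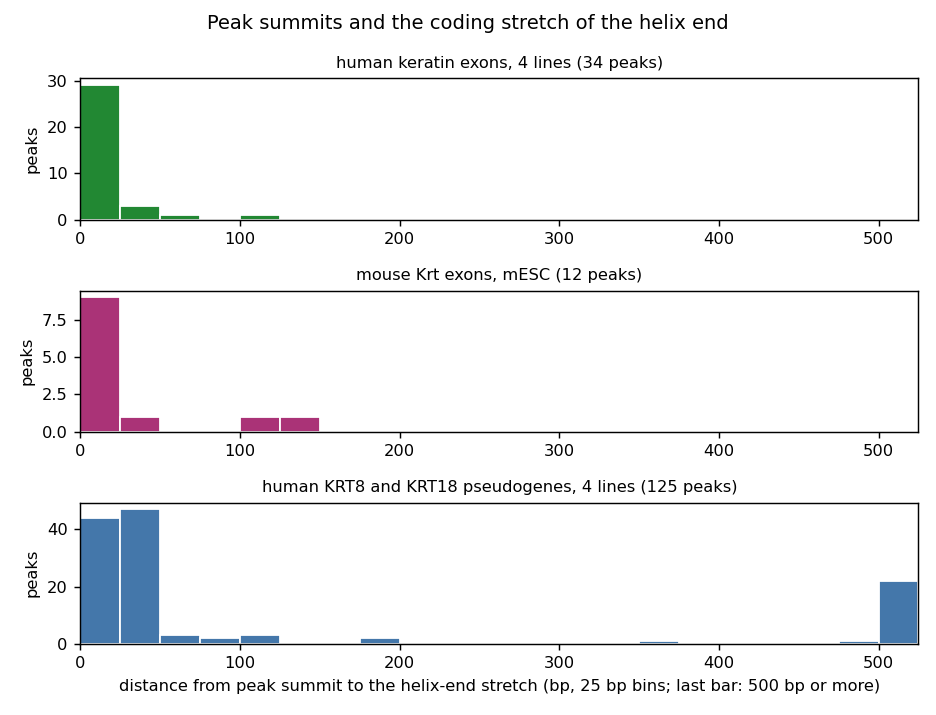
Histograms give the distance in bp from peak summit to the helix-end stretch, in bins of 25 bp with the last bar for 500 bp or more, for peaks over the stretch in human keratin exons (34), in mouse Krt exons in mESC (12), and for peaks anywhere over human KRT8 and KRT18 pseudogenes in which the stretch was found (125). In human exons the distance runs from the middle of the stretch, and in mouse exons from its nearest edge. In pseudogenes it runs from the middle of 48 compared bases that begin with the stretch. The first 2 panels hold only peaks that overlap the stretch, and 96 of the 125 pseudogene summits lie within 100 bp of that middle.

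At promoters, 22 of 53 mouse Krt genes (41.5%) were called in mESC, against 73.1% of 21755 protein-coding genes. Chromosome 11 (type I) had 10 of 27 and chromosome 15 (type II with Krt18) 12 of 26, and 27 Krt genes had no promoter peak in either library. Krt7, Krt8, Krt18, Krt19 and Krt20 were all called, as were the epidermal genes Krt1, Krt2, Krt10 and Krt14, while Krt5 and Krt15 were not. The difference from the human lines was not tested, since species, annotation and list length (138349 and 142194 peaks) all differ.

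Related gene lists were counted by the same rule. The share of all genes was 71.9% in GM12878, 67.8% in HEK293T, 76.2% in HFF1 and 70.4% in K562. Of 15 other intermediate filament genes, 10 were called in GM12878, 12 in HEK293T, 12 in HFF1 and 11 in K562. The 8 called in all 4 lines were VIM, LMNA, LMNB1, LMNB2, NES, SYNM, GFAP and BFSP1, and 10 to 12 of 15 is close to the genome-wide share. Of 15 desmosome genes, whose products anchor keratin filaments at cell junctions, 6, 7, 6 and 7 were called. Their shares (40%, 46.7%, 40% and 46.7%) lay under those of all genes. Of 16 regulators of epithelial genes, 12, 10, 13 and 10 were called. These shares (75%, 62.5%, 81.25% and 62.5%) were near those of all genes. TP63, the master regulator of stratified epithelium, was called in GM12878 and HFF1 only, and ZNF750 and OVOL1 had no promoter peak in any library. Of 8 promoters that mark epithelium and keratinocytes, 6, 1, 5 and 5 were called in GM12878, HEK293T, HFF1 and K562. Their shares were 75%, 12.5%, 62.5% and 62.5%. At canonical starts 2, 0, 3 and 2 were called, against 66.3%, 62.9%, 71.5% and 64.7% of all genes. EPCAM had a peak in all 8 libraries, and the keratinocyte cadherin DSG3 in K562 replicate 2 alone. Whether a few epithelial cells contributed to any library was not tested.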

How the data were processed

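Accessible chromatin was measured by bulk ATAC-seq in 10 libraries, 2 per line. Reads were processed with cutadapt 3.2, Bowtie2 2.4.2, Picard and MACS2 2.2.7.1 on hg38 and mm10, per the submitters' processing notes; read shifts, mapping-quality limits and duplicate handling are not given in the sources used here. The authors deposited 1 narrowPeak list per library, with a score, a fold (linear ratio over local background), a −log10 p-value and a −log10 q-value per peak. These are the authors' values and describe peaks within 1 list. The lowest deposited −log10 q was 2.00 to 2.05. Pileup and background in reads were solved from fold and p for 100% of peaks. Without molecular identifiers, PCR copies could not be told from separate fragments, and no counting interval was computed.

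From the lists, promoter peaks were called against GENCODE release 44 (human) and M21 (mouse), at least 1 bp of a peak counting as overlap, in Python 3.11.15 with pandas 2.3.3 and numpy 2.4.6. Shares of peaks in the cluster spans were tested by an exact one-sided permutation over all pairings of 8 libraries with Benjamini-Hochberg adjustment over 2 tests. The functions were tested on simulated data. Every keratin gene with a promoter peak in at least 1 human library is named, with values where both replicates of a line had one. The members and gene lists were chosen with earlier results of these data known. Promoter features had been planned on RefSeq's table, which held 34 of 55 keratins, and were computed from hg38 at canonical starts instead. Coordinates count from 1. Alternatives changed the window, the start sites, the q limit, the list length, the overlap, the span and the libraries. Some marker promoters and exon sequences are not reported here.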

Additional observations from a re-analysis of the deposited data

How the results depend on the processing

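HFF1 had the most called keratin genes under all 8 alternatives to the calling rule, with 5 to 15. Windows of 500 bp and 2 kb left 0 and 3 genes called on chromosome 17 in GM12878. With canonical starts only, HFF1 fell to 6 (4 on chromosome 17 and 2 on chromosome 12), K562 to 1 on chromosome 17, the genes called in all 4 lines to 1 and the calls over all lines from 24 to 15. With −log10 q of at least 5, HEK293T had 1 called gene (1 on chromosome 12), K562 had 1 on chromosome 17, and 1 gene was called in all 4 lines. With the 50000 best peaks per library, GM12878 had 1 called gene (0 on chromosome 17, 1 on chromosome 12), HEK293T 1 (1 on chromosome 12), HFF1 5 (0 on chromosome 17), K562 1 on chromosome 17, 0 genes were called in all 4 lines, and the calls over all lines numbered 11. Leaving out replicate 1 or replicate 2 gave 1 to 2 on chromosome 17 in GM12878. The chromosome 17 span kept an exact permutation p of 0.0286 or less with −log10 q of at least 5, with 50000 peaks, with the span extended by 100 kb (eta squared 0.981 to 0.993) and without each library in turn (0.988 to 0.995), but had 0.995 with p = 0.0667 in the 3 lines whose peak names begin with AH or BH. The chromosome 12 span reached 0.921 (exact permutation p = 0.0286) with 50000 peaks, and 0.735 to 0.896 without each library in turn. With a replicate block, eta squared was 0.992 (exact permutation p = 0.0417, the smallest of 24 pairings) on chromosome 17 and 0.789 (p = 0.208) on chromosome 12. Same-numbered libraries did not deviate together (r from −0.052 to 0.068 over 581 bins). Such broad bins cannot exclude a shared preparation, so whether the numbers pair the libraries cannot be told from them. HEK293T, with 0.465 and 0.466 reads of background, limits what can be detected there: a missing peak in it is not a closed promoter.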

Other observations

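The helix-end stretch also recurs in the processed pseudogenes of KRT8 and KRT18, which are copies of their spliced transcripts scattered over the genome. Of 112 such copies, 12 and 12 had a peak in GM12878 (10.7% and 10.7%), 19 and 19 in HEK293T (16.96% and 16.96%), 5 and 5 in HFF1 (4.46% and 4.46%), and 28 and 22 in K562 (25% and 19.6%). Of 9895 other processed pseudogenes, 2.94% and 3.16% had one in GM12878, 1.56% and 1.55% in HEK293T, 3.75% and 3.33% in HFF1, and 3.86% and 3.51% in K562. The KRT8 and KRT18 copies are longer, with a median of 1287 bp against 565 bp.

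Of 149 peaks over KRT8 and KRT18 pseudogenes of all kinds, 125 lay over copies in which the stretch was found. At most 10 mismatches were allowed in 48 bases that begin with it. Of the 125 peaks, 96 (76.8%) had the summit within 100 bp of the middle of these bases, 91 within 50 bp. They came from 33 of 39 pseudogenes. HEK293T, which had the fewest promoter calls among keratin genes, thus had peaks over more of these copies than HFF1, which had the most. The stretch was chosen after the exon peaks had been seen. Read mapping among copies was not tested.

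Elsewhere on chromosomes 12 and 17 the 12 letters occurred 24 times. In keratin pseudogenes, PRPH or GFAP, which encode intermediate filament proteins or derive from them, 8 of 17 occurrences had a peak in at least 1 library. Only 2 were called in both replicates of a line, those in PRPH and GFAP, and none in a keratin pseudogene was. Of 7 occurrences in other genes or between genes, 1 had a peak, called in both replicates of a line.

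The CTCF consensus, chosen after seeing the data, was found at 5 of 24 and 5 of 26 HEK293T peaks in the keratin spans (20.8% and 19.2%), against 7.16% and 7.01% of all its peaks on chromosomes 12 and 17. In the 2 HFF1 libraries it was found at 3.2% and 4.96%, against 3.46% and 3.43%. GM12878 had 8% and 6.33%, against 5.26% and 5.18%, and K562 7.02% and 8.33%, against 5.71% and 5.79%.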
